A study of Homo sapiens with 6 samples.

Results

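MDM2, MDM4, PPM1D and CDKN1A are 4 genes of the p53 pathway, and the data give the splicing of their transcripts in LUAD cells with and without extra SAM68. Every alternative splicing (AS) event listed for one of these genes was taken, provided that its reads averaged 10 or more per library. These were 22 events, 10 of MDM2, 6 of MDM4, 5 of PPM1D and 1 of CDKN1A, of 66396 tested in all. No listed event of the 4 genes fell under the limit. The counts below cover all 22, and the values of 20 are given.

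NCI-H1975 is an established human lung adenocarcinoma (LUAD) cell line. The cells were transfected with a PCDNA3.1-SAM68 plasmid, or with the PCDNA3.1 plasmid alone as control, at 2 µg per well with lipofectamine 2000, and RNA was isolated with Trizol at 48 h. There were 3 libraries per group. The expression was transient, and no selection of transfected cells is described in the sources used here. The study's methods call the libraries of a group biological replicates and do not describe how their cultures were separated, so p-values measure the spread between these libraries. In bulk RNA, fewer cells with a transcript and less of it per cell cannot be told apart.

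p53 is a transcription factor that is activated by DNA damage and other stress and that halts the cell cycle or starts apoptosis. MDM2 is the E3 ubiquitin ligase that marks p53 for degradation, and MDM4 (MDMX) is its relative, which binds p53 and masks its transactivation domain. PPM1D (WIP1) is the phosphatase that removes the activating phosphates from p53 and its kinases. CDKN1A encodes p21, the inhibitor of cyclin-dependent kinases through which p53 arrests the cell cycle, and MDM2, PPM1D and CDKN1A are all transcribed in response to p53. MDM2 and MDM4 are known for alternative splicing. Skipping of MDM4 exon 6 gives the form called MDM4-S, which holds little of the full protein.

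The sequences below are those of the alternative exons that the results turn on, from GRCh38, read 5′ to 3′ on the plus strand, which all 4 genes use. Exon numbers are those of the canonical GENCODE 44 transcripts MDM2-202, MDM4-203, PPM1D-201 and CDKN1A-201. For MDM4 exon 6 (chr1:204537430-204537497, 68 nt, coding) the exon is in capitals, between the last 20 bases of the intron before it and the first 6 of the intron after it.
MDM4 exon 6 with its splice sites: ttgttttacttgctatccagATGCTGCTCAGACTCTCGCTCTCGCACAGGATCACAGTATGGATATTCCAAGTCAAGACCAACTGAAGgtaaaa
The same exon has a shorter form that starts at an internal 3′ splice site (chr1:204537459-204537497, 39 nt), here in capitals.
MDM4 exon 6, short form: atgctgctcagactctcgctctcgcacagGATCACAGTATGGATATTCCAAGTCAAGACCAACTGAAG
In MDM2, exon 9 (chr12:68835829-68835984, 156 nt, coding) can end at an internal 5′ splice site, which leaves only the 15 nt in capitals.
MDM2 exon 9: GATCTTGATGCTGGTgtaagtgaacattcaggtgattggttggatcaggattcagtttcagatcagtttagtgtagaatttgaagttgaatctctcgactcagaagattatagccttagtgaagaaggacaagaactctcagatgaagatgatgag

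The splice sites of these exons show what the capitals stand beside. The 3′ splice site of full MDM4 exon 6 is ttgttttacttgctatccagATG and that of its short form is agactctcgctctcgcacagGAT, while both use the 5′ splice site AAGgtaaaa. The 5′ splice site at the end of MDM2 exon 9 is GAGgtagta, and the internal one is GGTgtaagt (intron bases in lower case). The reading frame of each form was followed from the annotated start codon. Without exon 6 the MDM4 frame held 140 codons in place of 490 and stopped in exon 7, 412 bases before the last exon junction. The short form of exon 6 also shifted the frame, which then held 153 codons. The shortened MDM2 exon 9 lost bases in a multiple of 3 and kept the frame, with 450 codons in place of 497.

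For each event, the counts were the reads that crossed the junctions of the inclusion form or of the skipping form. Percent spliced in (PSI) is the length-scaled share of the inclusion form, and ∆PSI is SAM68 minus control in percentage points. Summed over the skipped exon (SE) events, the junction reads per library came to 16951876 to 19737729, where a junction shared by several events counts in each. KHDRBS1, the gene of SAM68, was read first as a check of the groups. Its junction reads rose from 318.5 ± 8.91 (SD, n = 3) to 1255 ± 23.1 rpm (reads scaled to a library total of 1000000), a log2 fold change of 1.98 ± 0.05 (SE) with an adjusted p of 1.16e-21 in limma, and reads of the plasmid and of the cell's own gene cannot be told apart. Of the epithelial markers chosen to check the cell type, 3 of 10 had tested events (KRT7, KRT8 and KRT18), with a summed level of 732.0 to 995.0 rpm in the control and 760.2 to 770.1 rpm in the SAM68 libraries. All 3 had an unadjusted p under 0.05 in limma, beside 12.1% of all genes, and 0 passed after adjustment, beside 0.414%. KRT7 stood at 3.67 ± 0.742 and 1.77 ± 0.473 rpm (adjusted p = 0.383, limma) and KRT18 at 482.2 ± 10.7 and 524.8 ± 4.82 rpm (adjusted p = 0.305, limma), both without overlap, beside 16.8% of all genes, and KRT8 was at 519.6 rpm in the control library at position 1 and at 229.5 to 253.0 rpm in the other five (adjusted p = 0.254, limma). In the same library SNRPB, a core spliceosome gene among the splicing factors below (named after its values were seen), was at 1575 rpm and in the other five at 1119 to 1190 rpm. That is also the control library that stood apart in MDM4 exon 6, and the part of these levels in that result was not tested. Of 8 markers of blood, endothelial and stromal cells, 0 had a tested event. A gene without an event in these tables has no value here, whatever its expression.

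SAM68 overexpression gave no called change in the splicing of the 4 genes. With an adjusted p under 0.05 and an absolute ∆PSI of at least 10 points, 0 of the 22 events passed, where 0.0256% of all tested events passed (17 of 66396). By type, the background was 0.0105% of SE events, 0.125% of mutually exclusive exon (MXE) events and 0% of alternative 5′ splice site (A5SS) events, so a count of 0 among 22 is near the background. Without the limit on ∆PSI the count was also 0 of 22, beside 0.0964% of all events. The genes had 15 SE, 6 MXE and 1 A5SS events, and none among the alternative 3′ splice site or retained intron events. At an unadjusted p under 0.05 in the quasi-binomial test there were 2 of 22, both in MDM2 (1 of them is described below), beside 8.42% of all events. The groups did not overlap in 2 of 22, also both in MDM2, beside 6.12% of all events with a PSI in every library. The median absolute ∆PSI was 3.06 points for the 22 events and 1.24 points for all tested events.

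**Figure D1:**
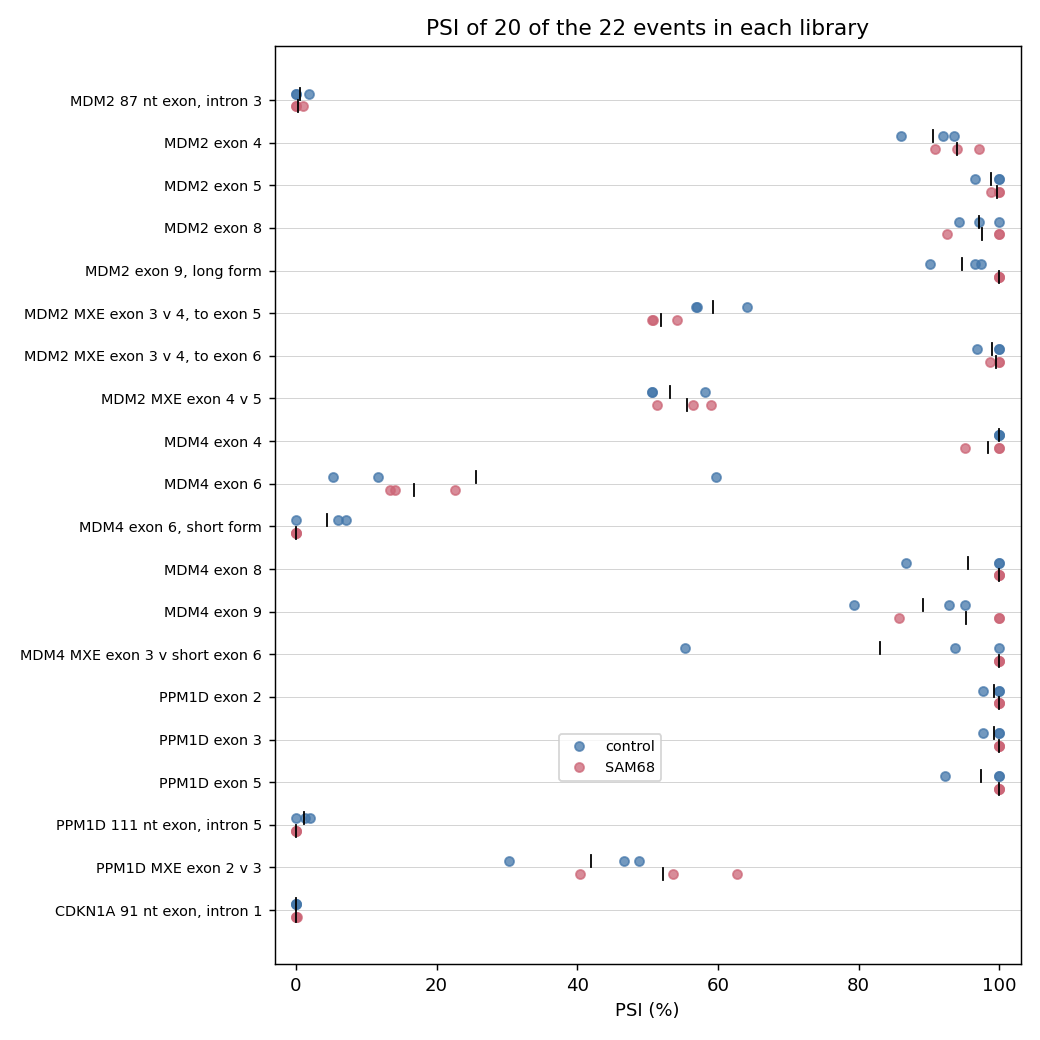
PSI in percent (x axis) of 20 of the 22 events (rows) in the 3 control (blue) and 3 SAM68 (red) libraries, with the group means as black bars. The groups overlapped except for MDM2 exon 9 (94.6% against 100% on average) and the MDM2 exon 3 or 4 event read to exon 5 (59.3% against 51.8%), and MDM4 exon 6 had the library farthest from its group, at 59.8%.

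MDM4 exon 6 was mostly skipped in 5 of the 6 libraries. The inclusion reads of the control libraries were 9 of 13, 1 of 13 and 4 of 24, for PSI values of 59.8%, 5.21% and 11.7%. Those of the SAM68 libraries were 4 of 21, 4 of 13 and 3 of 15, for 13.4%, 22.7% and 14.2%. One control library, the one at list position 1, was therefore far above the other five, and the groups overlapped. The group means were 25.5 ± 29.8% in the control and 16.8 ± 5.14% in the SAM68 libraries (SD, n = 3), with a ∆PSI of -8.78 points and an adjusted p of 0.793 in the quasi-binomial test. Without that control library the ∆PSI was 8.32 points, so its sign rested on 1 library. The 95% Wilson interval of that library ran from 32.7% to 82.0%, at 13 to 24 reads per library in this event.

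The other MDM4 events were read at similarly low depth. The short form of exon 6 had 0, 1 and 2 inclusion reads in the control libraries and 0 in each of the 3 SAM68 libraries, where 0 of 38 reads allows a share of reads of up to 7.89%. It shares its skipping junction with full exon 6, so both events count the same 36 control and 38 SAM68 skipping reads. Exon 4 (chr1:204530684-204530817) was included in 63 of 63 control and 78 of 79 SAM68 reads. Exon 8 (chr1:204542784-204542944) was included in 46 of 47 and 44 of 44 reads. Exon 9 (chr1:204544535-204544684), whose skipping keeps the frame with 440 codons, had PSI values of 79.3%, 95.1% and 92.9% in the control and 85.7%, 100% and 100% in the SAM68 libraries. Its group means, 89.1 ± 8.55% and 95.2 ± 8.25%, differed by less than the spread between libraries (adjusted p = 0.612, quasi-binomial test), and without single libraries the ∆PSI of 6.14 points ranged from 1.25 to 10.9, lowest without the control library at position 1, and was 3.35 without division by effective length. In the MXE event that sets exon 3 against the short form of exon 6, the skipping reads were 0, 1 and 2 in the control and 0 in every SAM68 library. These numbers equal the inclusion reads of the short form above, and both events hold the junction from exon 6 to exon 7. Inclusion reads of the MXE event can also come from the junction into exon 3, which a transcript with both exons also has. The adjusted p was 0.727 in the quasi-binomial test, for a ∆PSI of 17.0 points at 5 to 19 reads per library. This value rested on the control library at position 3, with 2 of 5 skipping reads, since without it the ∆PSI was 3.16 points.

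**Figure D2:**
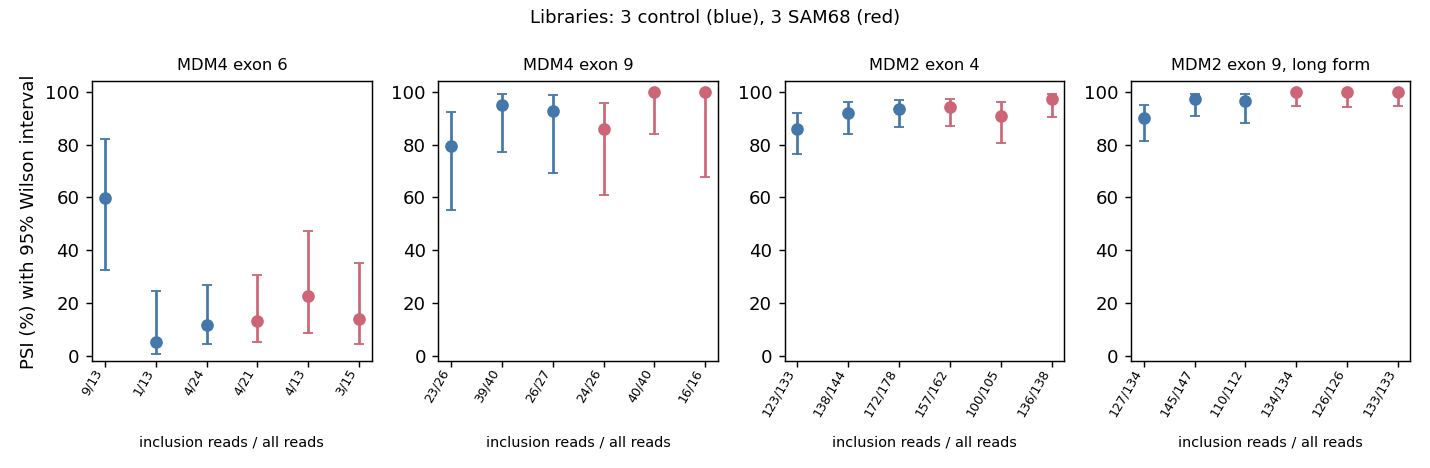
PSI in percent with the 95% Wilson interval (bars, counting error only) of 4 MDM4 and MDM2 events in each library, control in blue and SAM68 in red, with inclusion reads over all reads under each point. MDM4 exon 6 rests on 13 to 24 reads per library, and its control libraries run from 5.21% to 59.8%, while the 3 SAM68 libraries of MDM2 exon 9 all stand at 100%.

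In MDM2, the internal 5′ splice site of exon 9 was read in the control libraries only. The reads of the shortened exon were 7 of 134, 2 of 147 and 2 of 112 in the control and 0 of 134, 0 of 126 and 0 of 133 in the SAM68 libraries. Every SAM68 library was thus above every control library in the share of the long form, which was 94.6 ± 3.97% in the control and 100 ± 0% in the SAM68 libraries. The ∆PSI of 5.37 points had an unadjusted p of 0.00721 and an adjusted p of 0.513 in the quasi-binomial test, and the exact permutation test, two-sided, gave 0.1, the smallest p that 3 against 3 libraries allow. It did not pass, and 0 of 393 SAM68 reads allows a share of the short form of up to 0.763% of reads. Of the 11 control reads of the short form, 7 were in the control library at position 1. The ∆PSI without single libraries ranged from 3.10 to 6.72 points, and was lowest without that library. The same library also stood apart in KRT8, SNRPB and an MDM4 exon, and a link of those values to this event was not tested. The ∆PSI was 2.79 points when reads were not divided by effective length. A likelihood ratio test on the pooled reads, which ignores the spread between libraries, gave an adjusted p of 0.00416. The ∆PSI was below the limit of 10 points in each of these settings.

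An 87 nt exon of MDM2 intron 3 (chr12:68814603-68814689), annotated only in a transcript marked for nonsense-mediated decay, was close to absent, with 2 of 210 control and 1 of 180 SAM68 reads. With it the frame held only 76 codons.

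MDM2 exons 4, 5 and 8 were included in nearly all reads. Exon 4 (chr12:68816812-68816945), part of the region that binds p53, was included at 86.0%, 92.0% and 93.5% in the control and at 94.0%, 90.9% and 97.1% in the SAM68 libraries. The means of 90.5 ± 3.95% and 94.0 ± 3.12% overlapped in their libraries (∆PSI 3.52 points, adjusted p = 0.565, quasi-binomial test), and the ∆PSI was 1.28 points without the control library at position 1, 1.96 without the SAM68 library at position 3 and 1.92 without division by effective length. Exon 5 (chr12:68820325-68820374) stood at 98.8 ± 2.04% and 99.6 ± 0.677%. Exon 8 (chr12:68828771-68828931) stood at 97.2 ± 2.84% and 97.5 ± 4.32%, where 1 SAM68 library held all 7 skipping reads of its group and 2 control libraries held 5 and 2. The frame without exon 4, 5 or 8 held 84, 112 or 176 codons. No event of an MDM2 first exon was listed, so use of the 2 MDM2 promoters, of which the inner one responds to p53, was not analysed here.

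The MXE events of MDM2 set pairs of neighbouring exons against each other. In the one with exons 3 and 4 between exons 2 and 5, the PSI of exon 3 was 64.1%, 57.0% and 56.8% in the control and 50.8%, 54.1% and 50.6% in the SAM68 libraries. The groups did not overlap (59.3 ± 4.16% and 51.8 ± 2.00%), but the ∆PSI of -7.50 points had an adjusted p of 0.701 in the quasi-binomial test. Most of its 874 reads crossed junctions that a transcript with both exons also has. The junction from exon 3 to exon 5, which only skipping of exon 4 makes, held 34 reads, as 10, 6 and 6 in the control and 5, 5 and 2 in the SAM68 libraries. The event with exons 4 and 5 between exons 3 and 6 had means of 53.1 ± 4.40% and 55.6 ± 3.94%, and the junction from exon 4 to exon 6 held 4 of its 618 reads. With exons 3 and 4 read to exon 6, the PSI of exon 3 was 98.9% and 99.6% on average, with 3 control and 1 SAM68 skipping reads. The inclusion reads take in the junction from exon 2 to exon 3, which a transcript with both exons also has. These values therefore do not measure a choice between the exons.

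PPM1D was spliced nearly without exception as annotated. Exon 2 (chr17:60623521-60623749) was included in 220 of 221 control and 205 of 205 SAM68 reads, exon 3 (chr17:60633853-60633977) in 245 of 246 and 198 of 198, and exon 5 (chr17:60656599-60656841) in 192 of 195 and 158 of 158. The skipping reads of these coding exons, 1, 1 and 3, all came from the control library at list position 2. In that library the skipping reads of all SE events with under 5% skipping were 0.359% of reads, beside 0.361% and 0.362% in the other control libraries and 0.339% to 0.348% in the SAM68 libraries. The largest ∆PSI of these exons was 2.60 points (1.35 without division by effective length), for exon 5, with an adjusted p of 0.565 in the quasi-binomial test, and 0 of 158 reads allows a share of up to 1.90%. An 111 nt exon of intron 5 (chr17:60656932-60657042), which ends the frame after 430 of 605 codons, had 2 of 100 control and 0 of 85 SAM68 reads.

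The PPM1D event with the largest ∆PSI was an MXE event of exons 2 and 3. The PSI of exon 2 was 30.3%, 48.8% and 46.6% in the control and 40.3%, 62.7% and 53.6% in the SAM68 libraries. The groups overlapped, and the ∆PSI of 10.3 points (41.9 ± 10.1% to 52.2 ± 11.3%) had an adjusted p of 0.812 in the quasi-binomial test. It was 4.50 points without the control library at position 1, 5.06 without the SAM68 library at position 2 and 16.2 without the SAM68 library at position 1. The junctions that only an exclusive use of exon 2 or of exon 3 makes held 1 read each of 392.

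CDKN1A had 1 event, a 91 nt exon of intron 1 (chr6:36682640-36682730) before the start codon, so that the frame of 164 codons is the same with and without it. It was read once. The inclusion reads were 0 of 272, 0 of 257 and 0 of 253 in the control and 1 of 289, 0 of 223 and 0 of 249 in the SAM68 libraries. The 782 control reads allow a share of reads of up to 0.384%.

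Junction reads per gene did not pass the test for any of the 4 genes. Each gene was represented by its most deeply read event and called at an adjusted p under 0.05, and levels are compared between libraries only, since the events differ in length. CDKN1A stood at 46.9, 40.9 and 42.3 rpm in the control and 45.6, 40.9 and 45.7 rpm in the SAM68 libraries, a log2 fold change of 0.02 ± 0.12 (SE) with an adjusted p of 0.956 in limma. MDM2 stood at 29.5, 27.2 and 23.1 rpm and at 24.3, 28.1 and 33.0 rpm, with a log2 fold change of 0.09 ± 0.15 (adjusted p = 0.848, limma). These groups overlapped throughout, with the highest and the second lowest MDM2 level both in the SAM68 group.

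PPM1D was close to constant in the control, at 13.6, 13.4 and 13.9 rpm, and ran from 9.54 to 13.4 rpm in the SAM68 libraries (13.4, 9.54 and 11.2). Its log2 fold change of -0.26 ± 0.21 had an adjusted p of 0.650 in limma, and was -0.15 without the SAM68 library at position 2 and -0.12 when all its events were averaged. MDM4 stood at 4.48, 6.36 and 4.52 rpm and at 4.10, 7.34 and 2.93 rpm, a log2 fold change of -0.16 ± 0.34 (adjusted p = 0.893, limma). The count of 0 of 4 stands beside 0.414% of 10147 genes called (0.118% higher and 0.296% lower), 12.1% at an unadjusted p under 0.05, where 0 of the 4 genes were, and 16.8% with groups that did not overlap, where 0 of the 4 were. The MDM2 and MDM4 fold changes turned sign when all events of the gene were averaged.

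**Figure D3:**
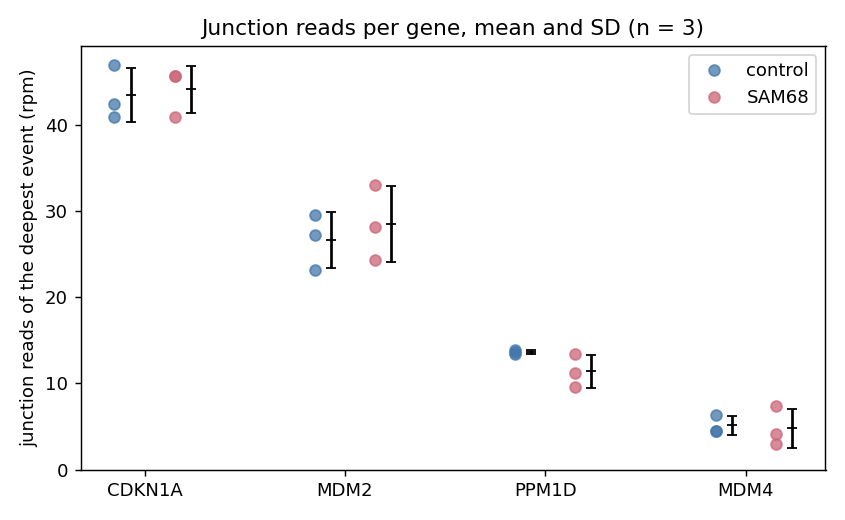
Junction reads of the deepest event of each gene in rpm (y axis, from 0) in the 3 control (blue) and 3 SAM68 (red) libraries, with the mean and SD (n = 3) beside the points. All 4 genes overlap between groups, from CDKN1A at 40.9 to 46.9 rpm to MDM4 at 2.93 to 7.34 rpm, and heights are not comparable between genes.

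Genes around the 4 members did not pass the test either. Of 29 p53 targets, 20 were tested and 0 were called, with a median log2 fold change of -0.13 (range -0.69 to 0.36, 16 of 20 below 0) beside -0.03 over all genes tested, of which 43.0% were above 0. The groups did not overlap in 5 of 20 targets, beside 16.8% of all genes, and 3 of 20 had an unadjusted p under 0.05, beside 12.1%. The 3, named after their values were seen, were GADD45A, a stress-induced inhibitor of growth, CCNG1, the cyclin G1 gene, and SESN1, a sestrin of the stress response. GADD45A stood at 80.6 ± 5.13 and 103.7 ± 8.23 rpm, a log2 fold change of 0.36 ± 0.09 with an adjusted p of 0.0645 in limma, the lowest of the list. CCNG1 stood at 198.1 ± 4.12 and 173.0 ± 8.07 rpm (log2 fold change -0.20, adjusted p = 0.203, limma), and SESN1 at 7.88 ± 1.18 and 4.75 ± 1.20 rpm (log2 fold change -0.69, adjusted p = 0.332, limma).

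Of 35 regulators of p53, 33 were tested and 0 were called, with a median log2 fold change of -0.04 (range -0.64 to 0.18). The groups did not overlap in 9 of 33, beside 16.8% of all genes, and 10 of 33 had an unadjusted p under 0.05, beside 12.1%. The called count of 0 in each list stands beside 0.414% of all genes. The lowest adjusted p was 0.0807, shared by USP10, a deubiquitinase of p53, and RPL11, a ribosomal protein that binds MDM2 (both named after their values were seen). USP10 stood at 115.4 ± 10.7 and 90.4 ± 9.98 rpm, with a log2 fold change of -0.35 ± 0.09. RPL11 stood at 3737 ± 73.2 and 4087 ± 94.5 rpm, with a log2 fold change of 0.13 ± 0.03. Of 9 factors known to act on the splicing of MDM2 or MDM4 in other cells, 9 were tested and 0 were called, with a median of -0.11 (range -0.18 to 0.26) 3 without overlap and 2 at an unadjusted p under 0.05. Those 2, also named after their values were seen, were PRMT5, an arginine methyltransferase of spliceosome proteins (118.1 ± 8.95 and 141.5 ± 11.9 rpm, adjusted p = 0.167, limma), and the SR protein gene SRSF1 (264.1 ± 10.4 and 233.0 ± 13.5 rpm, adjusted p = 0.214, limma).

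**Figure D4:**
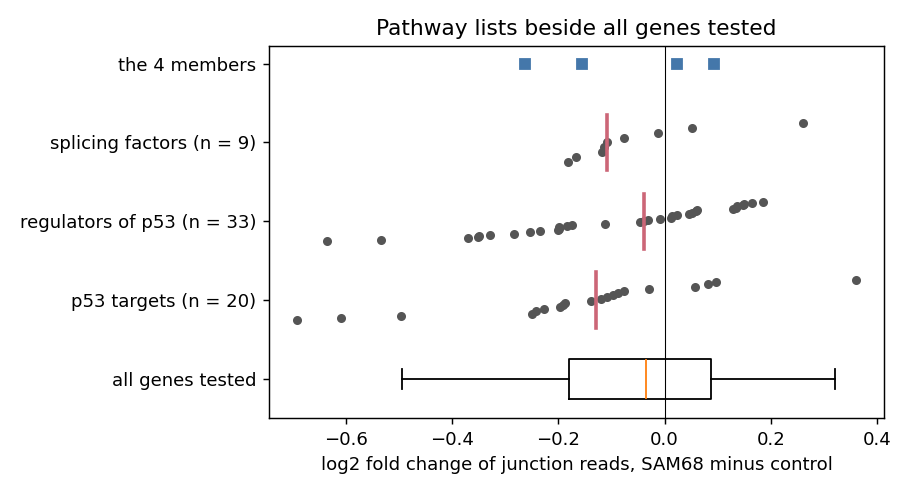
Log2 fold change of junction reads, SAM68 minus control (x axis), of the genes of each list (points, with the list's median as a red bar), of the 4 genes (squares), and of all genes tested as a box with whiskers at the 5th and 95th percentiles. The medians are -0.13 for the p53 targets, -0.04 for the regulators and -0.11 for the splicing factors, and no gene of the lists was called.

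The genes whose levels followed each of the 4 most closely over the 6 libraries are given as a description, since with 6 points and 10147 genes high values arise for many genes. Between 12 and 33 genes had a Pearson r above 0.95 with each. For MDM2 the closest were BNIP1 (r = 0.998) and SYNCRIP (0.996), for MDM4 SRBD1 (0.986) and SH3BP5L (0.981), for PPM1D TUBGCP4 (0.995) and ZDBF2 (0.990), and for CDKN1A PPP2R5D (0.984) and NADK (0.979).

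The introns beside the SE exons were searched on the transcribed strand for TAAA, a core of the SAM68 binding site, in 200 nt on either side. Of 38685 tested SE exons 76.26% had at least 1, with a median of 2. MDM2 exon 5 had 12, a number reached by 0.207% of exons, and MDM2 exon 8 had 10, reached by 1.11%. MDM4 exon 6 had 2. TAGGG, the hnRNP A1 motif, was found once beside MDM4 exon 6 and within MDM4 exon 9, and 25.01% of exons had at least 1 in their flanks.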

How the data were processed

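RNA from 3 control and 3 SAM68 libraries was sequenced. Per the labels, the authors used CASAVA 1.4, fastp 0.20.0 and HISAT2 2.1.0 with GRCh38, and their methods name rMATS, whose version is not given in the sources used here. The deposited tables hold the authors' raw junction read counts per event, not normalized, with the 3 libraries of a group in 1 list and the effective length of each form. The deposited inclusion levels served only to check the lists, and the authors' p-value, FDR and level difference columns were not used. The first list was taken as control, from the study's naming of the comparison. Of 78336 listed events, 78224 could be read. Over the tables of the 5 event types, 275 events had digits regrouped in their lists, of which 163 were recovered and 112 left out, none of the 4 genes.

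PSI was computed from counts divided by effective length. Events averaging 10 or more reads per library were fitted with a quasi-binomial model (Pearson dispersion moderated within each type by squeezeVar of limma 3.58.1 in R 4.3.3, then not below 1, F test), with Benjamini-Hochberg adjustment within each type. For genes, log2(rpm + 0.5) of the event with the most reads, per 1000000 of such reads, was tested with limma (trend). A count model had been planned for this step but was not run, and limma on rpm took its place. The event test did fit the same deposited lists as counts. A fold change on this scale understates that of low genes. The 95% Wilson intervals, and the limit of 3 reads where none was seen, hold for counting error alone, as the sources used here describe no molecular identifiers. Exon numbers, frames and sequences came from GENCODE 44 and the GRCh38 genome, in which 99.9% of tested SE exons were preceded by AG.

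The 4 genes and the gene lists were chosen with earlier results of these data known. Named were the 4 genes, their called events, the 2 events with most reads of each, up to 2 more by ∆PSI at a mean of 50 reads or more, the exons given for MDM4, MDM2, CDKN1A and PPM1D, KHDRBS1, called list genes, and the 2 genes most alike each. Of the 22 events, 2 of MDM2 are not reported here beyond the counts and 1 range without single libraries, although the naming rule takes in 1 of them. Other names were chosen after their values were seen. The alternatives were other filters, dispersions, tests, scalings and pseudocounts, and leaving out each library.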

Additional observations from a re-analysis of the deposited data

How the results depend on the processing

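No event of the 4 genes was called under any of 15 alternatives (event tests, of which the minimum of 20 reads tested 17 of the 22) and none of the 4 genes under any of 11 (gene test), while the count over all events moved from 17 to 1353 with pooled counts, 93 with the dispersion raised to 1 before moderation (added after seeing the data), 64 without the ∆PSI limit, 3 when limma tested logit PSI, 3 with at least 1 read in each group, 2 with unmoderated dispersions, and 2 to 3 with any 1 library left out. Over all genes, 12 were called higher and 30 lower, against 2 and 1 with the mean over the events of a gene, 14 and 11 with median-of-ratios scaling (added after seeing the data), and between 3 and 28 higher and 1 and 73 lower without single libraries. Averaging over events turned the log2 fold change of MDM2 to -0.15 and that of MDM4 to 0.10, and the cause was not tested. Leaving out single libraries gave -0.018 to 0.20 for MDM2, -0.48 to 0.11 for MDM4, -0.38 to -0.15 for PPM1D and -0.017 to 0.080 for CDKN1A. In the same way the ∆PSI ranged from -18.9 to 8.32 points for MDM4 exon 6, from -1.07 to 2.85 for MDM2 exon 8, from -0.39 to 1.37 for MDM2 exon 5, from -0.62 to 0.36 for the 87 nt exon, from -0.44 to 1.17 for exons 3 and 4 read to exon 6, and from -3.25 to 9.50 for an MXE event of MDM2 whose values are not given above. List genes called without single libraries numbered 0 to 2. Without the SAM68 library at position 2 these were USP10 (-0.42, adjusted p = 0.0273, limma) and NPM1 (0.19, adjusted p = 0.0184, limma), and without that at position 3 RPL11 (0.13, adjusted p = 0.0361, limma) and GADD45A (0.43, adjusted p = 0.0218, limma). The planned count-model alternatives were not run. No paired analysis was possible because the lists of 3 values carry no replicate numbers. The MDM4 events rested on 4 to 40 reads per event and library.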
